A study of Mus musculus with 12 samples.

Results

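The p53 target genes are described here in mouse embryonic stem cells depleted of the DNA demethylation enzyme Tet1 or Tet2. They are 36 genes with a known place in the p53 response, taken as the rows of both deposited gene tables whose Ensembl identifier maps to one of their symbols, and all 36 were found among the 36521 rows. The cells were V6.5, a mouse embryonic stem cell line grown with LIF. Tet1kd cells and Tet2kd cells had received a pSUPER-puro vector that expresses a short hairpin RNA against Tet1 or Tet2, had been selected with puromycin on SNL76/7-4 feeder cells, and were grown on from single picked clones. Parental cells had received no vector. Tet1kd, Tet2kd and parental cells each gave 4 libraries of poly(A)-selected RNA, labelled as biological replicates, and these were read on the SOLiD platform. No group with a control hairpin or an empty vector was among the samples, and how many clones the knockdown libraries came from was not given in the sources used here. What the vector, selection or clone choice did cannot be told apart from what the loss of Tet1 or Tet2 did. Both knockdowns were compared with the same parental libraries, so the results of the comparisons are not independent of each other.

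p53 is a transcription factor that binds DNA as a tetramer and is held at a low activity by Mdm2, a ubiquitin ligase that marks it for destruction and is itself a p53 target. When DNA is damaged, kinases such as Atm, Atr, Chek1 and Chek2 modify p53 and Mdm2, and p53 activates genes of cell cycle arrest, cell death, DNA repair and metabolism, together with the feedback genes that end the response. In embryonic stem cells p53 is made at a high level, and after DNA damage it is known to lower the pluripotency gene Nanog. Tet1 and Tet2 convert 5-methylcytosine in DNA into 5-hydroxymethylcytosine.

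Reads on genes were estimated at 15.9 to 39.7 M per Tet1kd library and at 14.4 to 31.1 M per Tet2kd library, against 14.6 to 31.6 M recovered per parental library. In each group 2 libraries, lettered a and b, were deeper and 2, lettered c and d, were shallower. This split by read depth is called the library batch here, though no label or header gives a batch. It was read from the values, and nothing ties the letters to the replicate numbers of the labels. Tet1 stood at 25.2% of its parental mean in Tet1kd cells and Tet2 at 50.9% in Tet2kd cells, by the group means of the authors' deposited tables. All 8 embryonic stem cell markers (Pou5f1, Nanog, Sox2 and others) were detected in each group. In Tet1kd cells 4 of them, Nanog, Sox2, Utf1 and Tdgf1, passed as higher by the adjusted p of the authors' deposited table. In Tet2kd cells Sox2 alone passed as higher, and none of the 8 passed as lower in either comparison. Log2 fold changes of Nanog in the authors' deposited tables were 0.33 in Tet1kd cells (adjusted p = 0.0214) and -0.08 in Tet2kd cells. Of 16 feeder fibroblast markers, 15 were lower in Tet1kd cells by the adjusted p of the authors' deposited table, and in Tet2kd cells 3 were lower and 5 higher. Their summed normalized read count was 3667 to 4053 in Tet1kd libraries, 8249 to 8914 in Tet2kd libraries and 6660.3 to 7156 in parental libraries. Markers of differentiated cells (Gata4, Gata6, Sox17, Pax6, T and Cdx2) summed to 145 to 162 in Tet1kd libraries, 605 to 649 in Tet2kd libraries and 516 to 596 in parental libraries, and 5 of these 6 were lower in Tet1kd cells by the same adjusted p. No marker of either list had a group mean of 0. The part that feeder or differentiated cells had in the results for p53 targets was not tested.

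The 36 listed p53 targets were lower more often than higher in both knockdowns. This list, like the others used here, was chosen with earlier results of these data known. Of 45 further p53 targets, described below, 13 were lower and 11 higher in Tet1kd cells. In Tet2kd cells 8 of those were lower and 5 higher. In Tet1kd cells 18 of the 36 genes were lower, 5 were higher and 13 did not pass the threshold (adjusted p of 0.05 in the first of the 2 tests in the authors' deposited table). Over all 23120 genes tested in that comparison 30.4% were called, 15.3% as lower and 15.2% as higher. Among the 10996 genes with a mean of at least 100 normalized reads, a class that holds 34 of the p53 targets, 49.6% were called, 24.2% as lower and 25.5% as higher. In Tet2kd cells 11 of the 36 genes were lower, 1 was higher and 24 did not pass, where the authors' deposited table called 7.14% of 22949 genes tested, 3.29% as lower and 3.85% as higher. Of the 10808 genes with such a mean there, 12.7% were called, 5.91% as lower and 6.84% as higher.

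The changes were mostly moderate in size. The median log2 fold change of the 36 genes was -0.29 in Tet1kd cells and -0.16 in Tet2kd cells, against -0.03 and -0.01 over all genes tested in the same comparisons of the authors' deposited tables. Below zero stood 28 of the 36 genes in each comparison. Lower RNA of a gene in such bulk samples can mean fewer cells that make it or less of it in each cell, and these cannot be told apart. The second test of the authors' deposited tables called more, with 30 of the 36 genes in Tet1kd cells (23 lower, 7 higher) and 22 in Tet2kd cells (18 lower, 4 higher). It also called more of all genes tested, 39.2% in Tet1kd cells (20.2% lower, 19% higher; 65.7% with a mean of at least 100) and 18.2% in Tet2kd cells (9.4% lower, 8.78% higher; 34.4% with such a mean). The genes it added were Trp53, Trp53inp1, Psrc1, Bbc3, Perp, Ercc5 and Sesn2 in Tet1kd cells, and Trp53, Ppm1d, Ccng1, Plk3, Cdkn1a, Psrc1, Bax, Aen, Ddb2 and Rps27l in Tet2kd cells. Calls named below are those of the first test unless another is given. Reads per library could be recovered from the group means for 32 of the genes in Tet1kd cells and for 34 in Tet2kd cells. Tet1kd and parental libraries did not overlap for 23 of 32 genes, 17 of them lower and 6 higher, where 24.1% and 24.5% of all genes with a mean of at least 10 were apart in these directions. Tet2kd and parental libraries did not overlap for 17 of 34 genes, 14 lower and 3 higher, where 11.8% and 11.7% of all such genes were apart. Within the deep and within the shallow libraries alone, each of the 22 called and recovered genes in Tet1kd cells and of the 12 in Tet2kd cells moved in the same direction as over all libraries. Where groups do not overlap this direction is fixed beforehand. That held for all of these genes but Dcxr in Tet1kd cells and Phlda3 in Tet2kd cells, so the split is no separate check. With limma on the recovered reads, 25 of 32 genes were called in Tet1kd cells, 19 lower and 6 higher, where 54.5% of all genes tested were called, 27.7% lower and 26.8% higher. In Tet2kd cells limma called 16 of 34, 14 lower and 2 higher, where 19.6% of all genes tested were called, 9.78% lower and 9.83% higher. With the library batch as a term limma called 28 of 32 in Tet1kd cells, 21 lower and 7 higher, where it called 64.2% of all genes, 32.6% lower and 31.5% higher. In Tet2kd cells that fit called 24 of 34, 19 lower and 5 higher, where it called 35.8% of all genes, 18.3% lower and 17.5% higher. The all-gene shares for overlap and for limma take in means from 10 up, lower than those of most of the 36 genes. Shares among genes with a mean of at least 100, where the deposited tests called more, are not given for these measures.

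**Figure D1:**
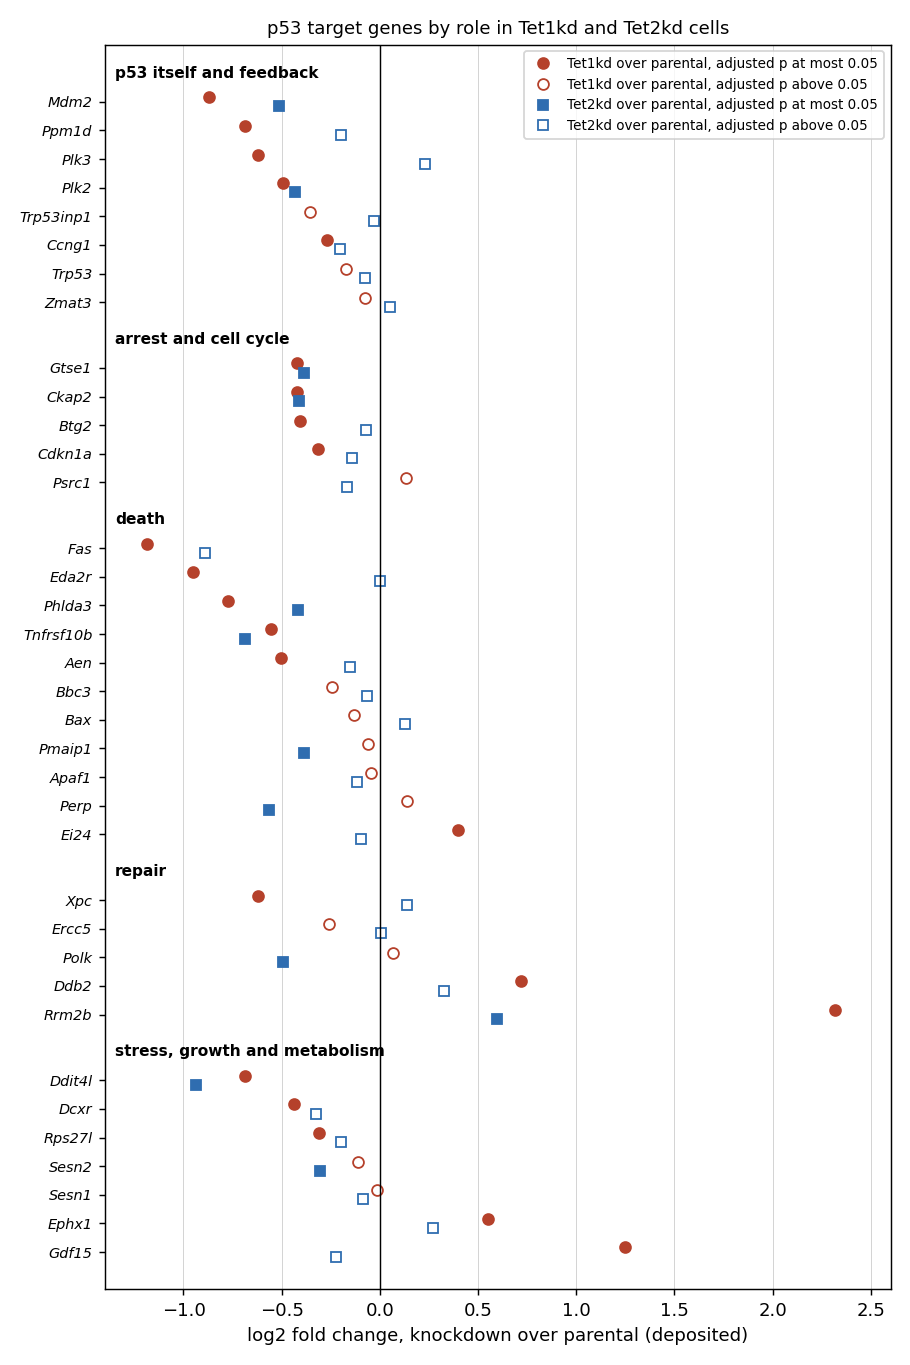
Log2 fold change of each of the 36 p53 target genes (x axis, knockdown over parental, from the authors' deposited tables), grouped by role, with circles for Tet1kd and squares for Tet2kd and filled symbols where the adjusted p was at most 0.05. Most symbols lie left of zero, from -1.19 (Fas in Tet1kd cells) to 2.32 (Rrm2b in Tet1kd cells), and the repair genes spread to both sides.

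The first group of genes holds Trp53, which encodes p53, and the genes that feed back on it. In Tet1kd cells 5 of these 8 genes were lower and none was higher, and in Tet2kd cells 2 were lower and none higher. Trp53 (ENSMUSG00000059552) itself averaged 10002 in Tet1kd cells, against 11266 in parental cells, normalized read counts in the authors' deposited table for Tet1kd, and 9816 in Tet2kd cells, against 10346 in parental cells, in the table for Tet2kd, which has its own scale. Its log2 fold changes in the authors' deposited tables, -0.17 in Tet1kd cells (adjusted p = 0.107) and -0.08 in Tet2kd cells (adjusted p = 0.752), did not pass the threshold. The second test there gave an adjusted p of 2.61e-06 in Tet1kd cells and of 0.0491 in Tet2kd cells for Trp53 in the authors' deposited tables.

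Mdm2 (ENSMUSG00000020184), the ligase that keeps p53 low, had normalized read counts of 4552, 4119, 4348 and 4136 in the Tet1kd libraries, 5273, 5799, 5604 and 5316 in the Tet2kd libraries and 8009.9, 7705, 7536 and 8103 in the parental libraries. Every library of either knockdown lay below every parental library, and the Tet1kd libraries lay below the Tet2kd libraries. Mdm2 was at 54.7% of the parental mean in Tet1kd cells and at 70.1% in Tet2kd cells. Log2 fold changes of Mdm2 in the authors' deposited tables were -0.87 in Tet1kd cells (adjusted p = 9.22e-23) and -0.51 in Tet2kd cells (adjusted p = 2.14e-08). Within the deep and the shallow libraries they were -0.86 and -0.88 in Tet1kd cells, and -0.51 and -0.52 in Tet2kd cells.

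Polo-like kinase 2 (Plk2, ENSMUSG00000021701), a p53-induced kinase of centriole duplication and the stress response, had normalized read counts of 1127, 1184, 1054 and 1162 in the Tet1kd libraries, 1262, 1236, 1113 and 1104 in the Tet2kd libraries and 1631, 1719.9, 1493 and 1524 in the parental libraries. Both knockdowns stood apart from the parental libraries and overlapped each other. Plk2 fell in both comparisons of the authors' deposited tables, with log2 fold changes of -0.49 in Tet1kd cells (adjusted p = 4.71e-07) and -0.43 in Tet2kd cells (adjusted p = 0.000145). Its relative Plk3 (ENSMUSG00000028680), a kinase activated by DNA damage, differed from it. Plk3 counts were 604, 743, 646 and 748 in the Tet1kd libraries, 1134, 1181, 1377 and 1247 in the Tet2kd libraries and 1041, 954, 1125 and 1088 in the parental libraries. Tet1kd libraries were below the parental ones and Tet2kd libraries just above them, without overlap in either case. The authors' deposited tables gave Plk3 log2 fold changes of -0.62 in Tet1kd cells (adjusted p = 1.04e-08) and 0.23 in Tet2kd cells (adjusted p = 0.145), so that the fall in Tet1kd cells passed the threshold and the difference in Tet2kd cells did not.

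Ppm1d (ENSMUSG00000020525) encodes the phosphatase Wip1, which removes the activating phosphates from p53 and from its kinases. Its normalized read counts were 803, 656, 719.7 and 669 in the Tet1kd libraries, 993, 1106, 1009.6 and 892 in the Tet2kd libraries and 1225, 1132, 1166 and 1061 in the parental libraries. The Tet1kd libraries were all lower than the parental ones, and one Tet2kd library lay within the parental range. Log2 fold changes of Ppm1d in the authors' deposited tables were -0.69 in Tet1kd cells (adjusted p = 1.87e-10) and -0.20 in Tet2kd cells (adjusted p = 0.244). Cyclin G1 (Ccng1, ENSMUSG00000020326), which brings a phosphatase to Mdm2, averaged 6557 in Tet1kd cells, against 7902 in parental cells in the authors' deposited table, and its reads per library could not be recovered in Tet1kd cells. Ccng1 counts were 6940.3, 7379, 6615 and 6480.4 in Tet2kd libraries, all below the parental 8547, 7928, 7427 and 7706. Ccng1 had log2 fold changes of -0.27 in Tet1kd cells (adjusted p = 0.00455) and -0.21 in Tet2kd cells (adjusted p = 0.0913) in the authors' deposited tables, and the one in Tet1kd cells passed.

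The remaining genes of this group, Trp53inp1 and Zmat3, passed in neither comparison by the first deposited test. Trp53inp1 encodes a nuclear stress protein that promotes p53 phosphorylation, and Zmat3 a zinc finger protein that binds RNA. Trp53inp1 lay next to the threshold in Tet1kd cells, with log2 fold changes of -0.36 in Tet1kd cells (adjusted p = 0.0505) and -0.03 in Tet2kd cells (adjusted p = 1) in the authors' deposited tables, while those of Zmat3 were -0.08 in Tet1kd cells (adjusted p = 0.591) and 0.05 in Tet2kd cells (adjusted p = 0.929).

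Of the 5 genes of arrest and the cell cycle, 4 were lower in Tet1kd cells and 2 in Tet2kd cells, and none was higher. Cdkn1a (ENSMUSG00000023067) encodes p21, the inhibitor of cyclin-dependent kinases through which p53 halts the cell cycle. Its normalized read counts were 1625, 1529, 1577 and 1659.7 in the Tet1kd libraries, 1780.5, 1738, 1837 and 1871 in the Tet2kd libraries and 1965, 1953, 2034 and 2009 in the parental libraries. The 3 groups did not overlap, with Tet1kd lowest and Tet2kd between. The steps were small, with log2 fold changes of -0.32 in Tet1kd cells (adjusted p = 0.00291) and -0.14 in Tet2kd cells (adjusted p = 0.426) in the authors' deposited tables, of which the one in Tet1kd cells passed. Btg2 (ENSMUSG00000020423), an antiproliferative gene whose protein recruits the deadenylation machinery, was counted at 1251, 1221, 1133 and 1127 in the Tet1kd libraries, 1552, 1513, 1475 and 1417 in the Tet2kd libraries and 1603, 1526, 1482 and 1655 in the parental libraries. Tet1kd libraries were below all others, and Tet2kd and parental libraries overlapped. Btg2 had log2 fold changes of -0.41 in Tet1kd cells (adjusted p = 0.000273) and -0.07 in Tet2kd cells (adjusted p = 0.919) in the authors' deposited tables.

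Gtse1 and Ckap2 encode microtubule-binding proteins of dividing cells, and Gtse1 protein also moves p53 out of the nucleus in the G2 phase. Gtse1 (ENSMUSG00000022385) had normalized read counts of 4193, 4490.3, 4426 and 4849.5 in the Tet1kd libraries, 4415, 4257, 4817 and 4920.0 in the Tet2kd libraries and 5881, 5589, 6193 and 6439.8 in the parental libraries. Ckap2 (ENSMUSG00000037725) had counts of 3103, 2907, 2934 and 2828 in the Tet1kd libraries, 2945, 3062, 2965 and 2876 in the Tet2kd libraries and 4070.0, 4028, 3859.9 and 3824 in the parental libraries. In both genes each knockdown lay wholly below the parental libraries, and the knockdowns overlapped each other. Gtse1 fell in both comparisons of the authors' deposited tables, with log2 fold changes of -0.42 in Tet1kd cells (adjusted p = 4.63e-06) and -0.39 in Tet2kd cells (adjusted p = 7.86e-05). For Ckap2 the authors' deposited tables gave -0.42 in Tet1kd cells (adjusted p = 7.80e-06) and -0.41 in Tet2kd cells (adjusted p = 2.69e-05). Psrc1, a spindle gene, was the one member of this role that the first deposited test called in neither comparison. Its counts averaged 4559 ± 143 in Tet1kd libraries, 3706 ± 282 in Tet2kd libraries and 4162 ± 124 in parental libraries (SD, n = 4 each), with log2 fold changes of 0.13 in Tet1kd cells (adjusted p = 0.259) and -0.17 in Tet2kd cells (adjusted p = 0.177) in the authors' deposited tables. Its Tet1kd libraries lay above the parental ones without overlap, and its Tet2kd libraries overlapped them. The other tests called Psrc1 as higher in Tet1kd cells and lower in Tet2kd cells, with adjusted p of 0.00363 in Tet1kd cells and 6.95e-05 in Tet2kd cells by the second test of the authors' deposited tables. Limma gave Psrc1 0.0437 in Tet1kd cells and 0.0318 in Tet2kd cells as adjusted p, and 0.000574 in Tet1kd cells and 0.000114 in Tet2kd cells with the library batch as a term.

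**Figure D2:**
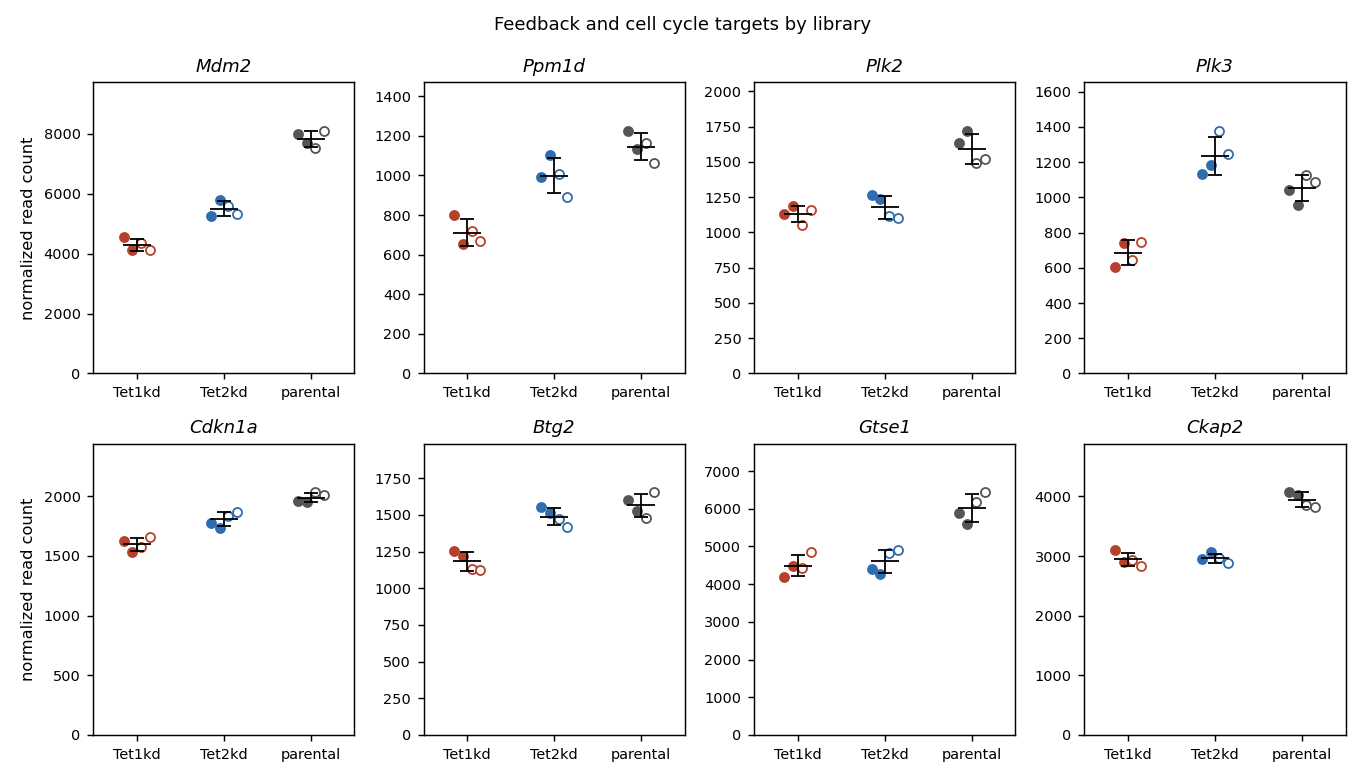
Normalized read counts (y axis, from 0) of 8 feedback and cell cycle targets in each recovered library of the Tet1kd, Tet2kd and parental groups, with filled points for deep and open points for shallow libraries and bars for the mean ± SD (n = 4). Mdm2, Plk2, Gtse1 and Ckap2 are lower in both knockdowns, while Plk3 and Btg2 are lower in the Tet1kd libraries and near or above the parental level in the Tet2kd libraries.

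Promoter sequence was looked at for the p53 half-site, the 10-base consensus of which p53 binds a pair. The consensus is the same on both strands. RefSeq (GRCm38.p6) gave promoters, from 250 bases before to 50 bases after the start, for 28 of the 36 genes, 38 promoters in all. A half-site was found in 15 of the 38 (39.5%), from 14 genes, and in 2745 of all 32851 promoters of the same length (8.36%). The overlapping promoters of Aen hold the same half-site, which is counted in each. Because the genes were listed as known p53 targets, a larger share than in all promoters can follow from that choice. A pair separated by at most 13 bases was found in 1 of the 38, a promoter of Cdkn1a, and in 24 of all promoters (0.0731%). A match describes the letters and does not show that p53 binds there. The p53 sites known in Mdm2 lie in an intron, outside these windows.

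The 250 bases before the start are shown for Cdkn1a, the promoter with the pair, and for Mdm2, Ckap2 and Ddit4l, 3 genes that were lower in both knockdowns and hold 1 half-site each. They are written 5′ to 3′ on the gene's strand, with half-sites in capitals, from RefSeq, build GRCm38.p6.
Cdkn1a, chr17:29090729-29090978, plus strand: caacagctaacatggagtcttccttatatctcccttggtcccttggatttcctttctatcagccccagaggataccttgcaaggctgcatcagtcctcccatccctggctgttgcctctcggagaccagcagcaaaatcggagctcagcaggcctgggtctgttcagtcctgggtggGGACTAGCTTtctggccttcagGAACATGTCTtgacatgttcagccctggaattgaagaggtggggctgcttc
Mdm2, chr10:117710759-117711008, minus strand: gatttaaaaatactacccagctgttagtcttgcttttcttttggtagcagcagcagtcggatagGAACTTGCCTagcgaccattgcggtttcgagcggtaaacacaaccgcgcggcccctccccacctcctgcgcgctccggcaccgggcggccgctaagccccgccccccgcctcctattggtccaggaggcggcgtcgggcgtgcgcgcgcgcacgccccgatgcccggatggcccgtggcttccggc
Ckap2, chr8:22185820-22186069, minus strand: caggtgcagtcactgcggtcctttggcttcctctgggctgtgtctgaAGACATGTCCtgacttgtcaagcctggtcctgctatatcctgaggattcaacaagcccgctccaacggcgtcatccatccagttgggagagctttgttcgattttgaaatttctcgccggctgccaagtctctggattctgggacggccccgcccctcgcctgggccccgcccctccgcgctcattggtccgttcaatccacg
Ddit4l, chr3:137623422-137623671, plus strand: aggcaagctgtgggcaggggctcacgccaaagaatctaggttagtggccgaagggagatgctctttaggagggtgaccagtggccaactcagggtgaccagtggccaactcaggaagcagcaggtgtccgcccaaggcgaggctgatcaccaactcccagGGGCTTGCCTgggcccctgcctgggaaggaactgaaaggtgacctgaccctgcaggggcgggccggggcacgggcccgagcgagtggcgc
The half-sites of Cdkn1a begin 73 and 51 bases before the start of the promoter shown. Another promoter of Cdkn1a, at chr17:29093519-29093818, holds no half-site. The half-site begins 186 bases before the start in Mdm2, 203 in Ckap2 and 90 in Ddit4l. Of the other genes lower in both knockdowns, Gtse1 has a half-site that begins at base 9 after the start of one of its promoters. No half-site was found for Plk2 and Phlda3, also lower in both, and no promoter was given for Tnfrsf10b. Half-sites were also found for Ei24, which was higher in Tet1kd cells, and for Bax, Sesn1 and Trp53, which passed in neither comparison. Aen, Rps27l, Ccng1 and Ppm1d, lower in Tet1kd cells only, and Polk, lower in Tet2kd cells only, held the rest. Any link between half-sites and calls was not tested.

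The 11 genes of cell death were lower or did not pass, apart from Ei24, which was higher in Tet1kd cells. In Tet1kd cells 5 were lower, 1 was higher and 5 did not pass, and in Tet2kd cells 4 were lower and 7 did not pass. Of the genes of the mitochondrial pathway, Bax, Bbc3 (Puma) and Apaf1 passed in neither comparison by the first deposited test. Pmaip1, described below, was lower in Tet2kd cells. Bax, which opens the outer mitochondrial membrane, averaged 1958 ± 267 in Tet1kd libraries, 2344 ± 267 in Tet2kd libraries and 2143 ± 359 in parental libraries (SD, n = 4 each). Its log2 fold changes in the authors' deposited tables were -0.13 in Tet1kd cells (adjusted p = 0.751) and 0.13 in Tet2kd cells (adjusted p = 0.758). Bbc3 and Apaf1, an activator of Bax and the scaffold of the caspase-activating apoptosome, had log2 fold changes of -0.24 in Tet1kd cells (adjusted p = 0.29) and -0.07 in Tet2kd cells (adjusted p = 1) for Bbc3 and of -0.04 in Tet1kd cells (adjusted p = 0.848) and -0.12 in Tet2kd cells (adjusted p = 0.566) for Apaf1 in the authors' deposited tables. For each of these 3 genes both knockdowns overlapped the parental libraries. Bax was higher in the shallow than in the deep libraries within each group (for example 1873, 1801, 2513 and 2387 in the parental libraries a, b, c and d). With the library batch as a term, limma called Bax in Tet1kd cells (lower, adjusted p = 0.0214) and in Tet2kd cells (higher, adjusted p = 0.0234), Bbc3 in Tet1kd cells (lower, adjusted p = 0.00113) and Apaf1 in Tet2kd cells (lower, adjusted p = 0.0324). By the second test of the authors' deposited tables Bbc3 passed in Tet1kd cells (adjusted p = 0.00399) and Bax in Tet2kd cells (adjusted p = 0.0158).

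The 3 receptor genes of this group, Tnfrsf10b, Eda2r and Fas, fell in Tet1kd cells, and Tnfrsf10b alone of them passed in Tet2kd cells. Tnfrsf10b (ENSMUSG00000022074), the mouse receptor for the death ligand TRAIL, had normalized read counts of 624, 601, 635 and 618 in the Tet1kd libraries, 551, 620.2, 569 and 524 in the Tet2kd libraries and 869, 920.3, 932 and 919 in the parental libraries. Both knockdowns lay below all parental libraries. Tnfrsf10b fell in both comparisons of the authors' deposited tables, with log2 fold changes of -0.56 in Tet1kd cells (adjusted p = 1.07e-06) and -0.69 in Tet2kd cells (adjusted p = 1.26e-08). Eda2r (ENSMUSG00000034457), an X-linked receptor for ectodysplasin A2, had counts of 1269, 1421, 950.3 and 1179.6 in the Tet1kd libraries, 2428, 2637, 2179 and 2075 in the Tet2kd libraries and 2604, 2597, 2079 and 2047 in the parental libraries. The Tet1kd libraries were all below the parental ones, and the Tet2kd libraries overlapped the parental range. Eda2r was thus at 51.7% of the parental mean in Tet1kd cells and at 99.9% in Tet2kd cells, and its fall in Tet1kd cells was -0.95 on the log2 scale (adjusted p = 2.27e-08) in the authors' deposited table. Fas (ENSMUSG00000024778), the receptor for Fas ligand, was scarce, at 9.93, 11.9, 8.87 and 11.0 in the Tet1kd libraries, 14.5, 13.8, 8.90 and 14.0 in the Tet2kd libraries and 27.6, 18.01, 18.4 and 30.9 in the parental libraries. Both knockdowns were below the parental libraries, on few reads. Log2 fold changes of Fas in the authors' deposited tables were -1.19 in Tet1kd cells (adjusted p = 0.0364) and -0.89 in Tet2kd cells (adjusted p = 0.334).

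Phlda3, Aen and Ei24 act elsewhere in the death response. Phlda3 (ENSMUSG00000041801), whose protein competes with the survival kinase Akt for membrane lipids, had normalized read counts of 627, 733, 867 and 836 in the Tet1kd libraries, 909, 859, 1035 and 1118 in the Tet2kd libraries and 1109.9, 1268, 1445 and 1419 in the parental libraries. All Tet1kd libraries were lower than the parental ones, while one Tet2kd library overlapped them. The log2 fold changes of Phlda3 were -0.77 in Tet1kd cells (adjusted p = 2.21e-07) and -0.42 in Tet2kd cells (adjusted p = 0.0233) in the authors' deposited tables, and by limma the adjusted p in Tet2kd cells was 0.0162, or 0.0503 without parental library c. Aen (ENSMUSG00000030609), an exonuclease gene of apoptosis, averaged 1407 ± 119 in Tet1kd libraries, 1794 ± 88.4 in Tet2kd libraries and 1993 ± 145 in parental libraries (SD, n = 4 each). It fell in Tet1kd cells, where no library overlapped, with log2 fold changes of -0.50 in Tet1kd cells (adjusted p = 6.63e-07) and -0.15 in Tet2kd cells (adjusted p = 0.444) in the authors' deposited tables. Ei24 (ENSMUSG00000062762), which encodes a protein of the endoplasmic reticulum, was the one death gene that was higher. Its counts were 4552, 4949, 3934 and 4147 in the Tet1kd libraries, 3332, 3397, 2749 and 3039.9 in the Tet2kd libraries and 3575, 3506, 3081 and 3201 in the parental libraries, with Tet1kd libraries above all others. The authors' deposited tables gave Ei24 log2 fold changes of 0.40 in Tet1kd cells (adjusted p = 0.000525) and -0.09 in Tet2kd cells (adjusted p = 0.751).

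For Perp and Pmaip1 the fall lay in Tet2kd cells. Perp (ENSMUSG00000019851), a membrane protein gene of apoptosis and desmosomes, had normalized read counts of 1544, 1541, 1436 and 1432 in the Tet1kd libraries, 951, 1015, 852 and 840.3 in the Tet2kd libraries and 1477, 1337, 1219.6 and 1379 in the parental libraries. Every Tet2kd library was below every parental library, and the Tet1kd libraries overlapped the parental ones. Perp had log2 fold changes of 0.14 in Tet1kd cells (adjusted p = 0.324) and -0.56 in Tet2kd cells (adjusted p = 4.92e-07) in the authors' deposited tables. Pmaip1 (ENSMUSG00000024521), which encodes the Bcl-2 antagonist Noxa, had counts of 3189.5, 3171, 2657 and 2629.7 in the Tet1kd libraries, 2489, 2552, 2123 and 2134 in the Tet2kd libraries and 3085, 3431, 2850.0 and 2773 in the parental libraries. Tet2kd libraries again lay below the parental ones, though by less, with log2 fold changes of -0.06 in Tet1kd cells (adjusted p = 0.864) and -0.38 in Tet2kd cells (adjusted p = 0.00818) in the authors' deposited tables.

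**Figure D3:**
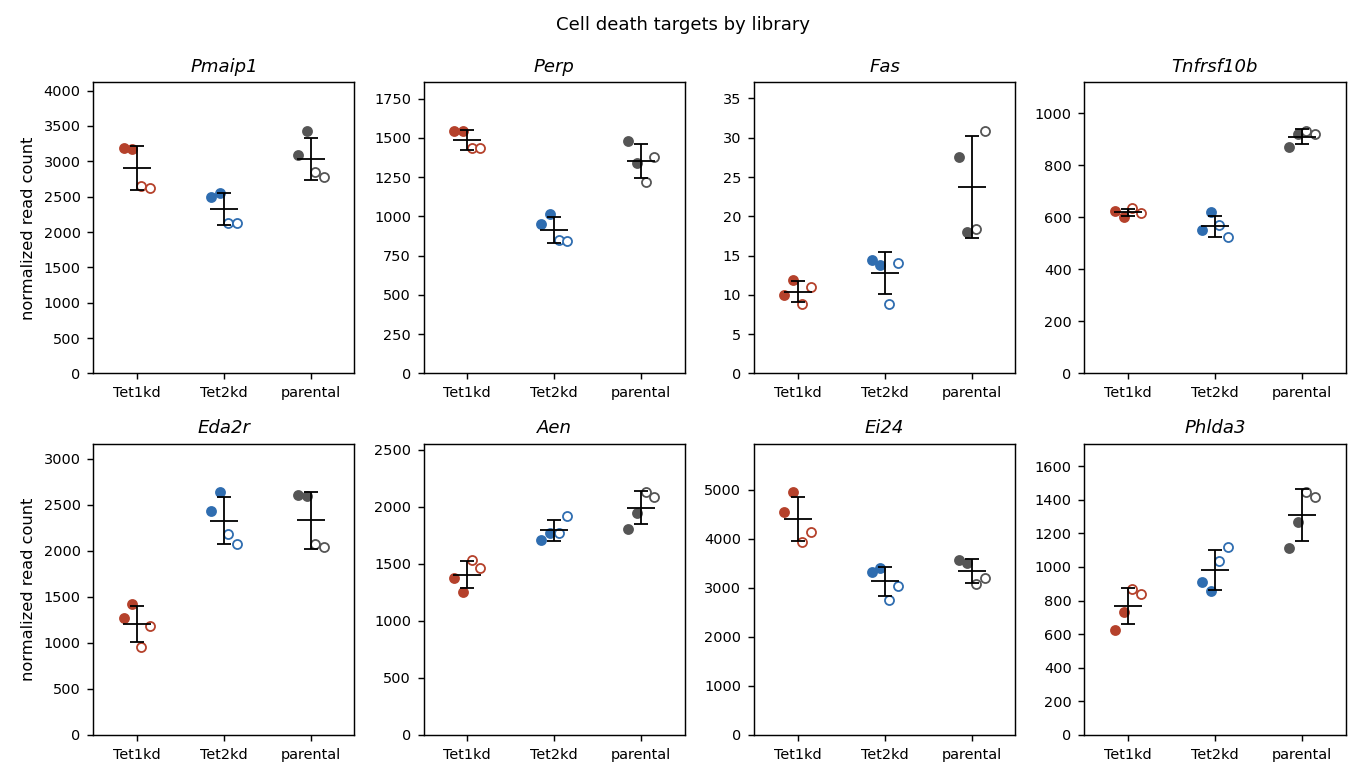
Normalized read counts (y axis, from 0) of 8 cell death targets in each recovered library of the Tet1kd, Tet2kd and parental groups, with filled points for deep and open points for shallow libraries and bars for the mean ± SD (n = 4). Eda2r and Aen are lowest in Tet1kd libraries, Perp and Pmaip1 are lowest in Tet2kd libraries, and Tnfrsf10b is below the parental level in both.

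The 5 repair genes went in both directions. In Tet1kd cells Rrm2b and Ddb2 were higher and Xpc was lower, and in Tet2kd cells Rrm2b was higher and Polk was lower. Rrm2b (ENSMUSG00000022292) encodes p53R2, the p53-induced small subunit of ribonucleotide reductase that supplies deoxynucleotides for repair and for mitochondrial DNA. Its normalized read counts were 957, 1045, 723 and 800.2 in the Tet1kd libraries, 299.5, 281, 224 and 263 in the Tet2kd libraries and 209, 175, 139 and 184 in the parental libraries. All Tet1kd libraries lay far above the rest, and the Tet2kd libraries lay above the parental ones without overlap. Rrm2b was at 499% of its parental mean in Tet1kd cells and at 151% in Tet2kd cells. The log2 fold changes of Rrm2b in the authors' deposited tables were 2.32 in Tet1kd cells (adjusted p = 7.72e-23) and 0.59 in Tet2kd cells (adjusted p = 0.00155), and the value in Tet1kd cells was the highest of the 36 genes.

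Ddb2 and Xpc encode the damage sensors that open nucleotide excision repair. Ddb2 (ENSMUSG00000002109) had counts of 675, 719, 661 and 708 in the Tet1kd libraries, 537, 578, 525 and 465 in the Tet2kd libraries and 446, 442, 361 and 431 in the parental libraries, higher in every knockdown library than in any parental one. In the authors' deposited tables its log2 fold changes were 0.72 in Tet1kd cells (adjusted p = 6.07e-09) and 0.33 in Tet2kd cells (adjusted p = 0.0558), the second of which did not pass. When the p-values of the authors' deposited table were adjusted again without genes of a mean below 10, Ddb2 passed in Tet2kd cells as well (adjusted p = 0.0372). Xpc (ENSMUSG00000030094) had counts of 345, 342, 426 and 355 in the Tet1kd libraries, 603, 575, 639 and 664 in the Tet2kd libraries and 554, 489, 578 and 631 in the parental libraries. Tet1kd libraries were below all others, and Tet2kd libraries overlapped the parental ones. Xpc had log2 fold changes of -0.62 in Tet1kd cells (adjusted p = 1.40e-06) and 0.14 in Tet2kd cells (adjusted p = 0.543) in the authors' deposited tables.

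Xpc lies on chromosome 6, where its neighbours were also low in Tet1kd cells. The 20 genes on either side of Xpc had a median log2 fold change of -0.82 in Tet1kd cells, by the authors' deposited table, with -0.20 for chromosome 6 and -0.62 for Xpc itself. Such a neighbourhood median was at the 1.10 percentile among all genes with a mean of at least 100. In Tet2kd cells the neighbours of Xpc had a median of 0.11 in the authors' deposited table. For the other p53 targets with enough neighbours the medians in Tet1kd cells ran from -0.17 (Bbc3) to 0.19 (Gtse1) in the authors' deposited table, with -0.06 around Rrm2b. The part of the neighbourhood in the fall of Xpc was not tested.

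Polk (ENSMUSG00000021668), a DNA polymerase that copies past damaged bases, had counts of 649, 621, 571 and 569.8 in the Tet1kd libraries, 362, 465, 397 and 410.0 in the Tet2kd libraries and 625, 564, 537 and 577 in the parental libraries. Every Tet2kd library was below every parental one, and Tet1kd and parental libraries overlapped. Log2 fold changes of Polk were 0.07 in Tet1kd cells (adjusted p = 0.743) and -0.50 in Tet2kd cells (adjusted p = 0.000207) in the authors' deposited tables. Ercc5, the nuclease that cuts on one side of a damaged stretch, averaged 625 ± 38.3 in Tet1kd libraries, 751 ± 66.2 in Tet2kd libraries and 749 ± 20.9 in parental libraries (SD, n = 4 each) and was called in neither comparison by the first deposited test. Ercc5 had log2 fold changes of -0.26 in Tet1kd cells (adjusted p = 0.0584) and 0.00 in Tet2kd cells (adjusted p = 1) in the authors' deposited tables, and its Tet1kd and parental libraries did not overlap. By limma Ercc5 passed as lower in Tet1kd cells (adjusted p = 0.00736).

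Among the 7 genes of stress, growth control and metabolism, Tet1kd cells had 3 lower and 2 higher and Tet2kd cells 2 lower and none higher. Ddit4l and the sestrin genes Sesn1 and Sesn2 restrain the growth kinase complex mTORC1. Ddit4l (ENSMUSG00000046818) had normalized read counts of 252, 304, 236 and 277 in the Tet1kd libraries, 216, 269, 219 and 195 in the Tet2kd libraries and 458, 405, 412 and 445 in the parental libraries. No knockdown library reached the parental range. Ddit4l fell in both comparisons of the authors' deposited tables, with log2 fold changes of -0.69 in Tet1kd cells (adjusted p = 3.89e-07) and -0.94 in Tet2kd cells (adjusted p = 2.33e-10). Sesn2 (ENSMUSG00000028893) was counted at 5489, 5579, 5633 and 5919 in the Tet1kd libraries, 4902, 4745, 4965 and 5171 in the Tet2kd libraries and 5738, 6029, 6303 and 6367 in the parental libraries, with all Tet2kd libraries below the rest. Sesn2 fell in Tet2kd cells in the authors' deposited tables, where its log2 fold changes were -0.11 in Tet1kd cells (adjusted p = 0.426) and -0.30 in Tet2kd cells (adjusted p = 0.0059). Sesn1 averaged 577 ± 30.1 in Tet1kd libraries, 548 ± 17.2 in Tet2kd libraries and 582 ± 21.3 in parental libraries (SD, n = 4 each) and passed in neither comparison, with log2 fold changes of -0.01 in Tet1kd cells (adjusted p = 1) and -0.09 in Tet2kd cells (adjusted p = 0.894) in the authors' deposited tables.

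Gdf15 (ENSMUSG00000038508), a secreted stress factor of the TGF-beta family, was scarce and rose in Tet1kd cells. Its counts were 84.4, 112, 119 and 123 in the Tet1kd libraries, 28.9, 42.2, 44.5 and 42.1 in the Tet2kd libraries and 29.8, 32.1, 48.2 and 74.1 in the parental libraries. Each Tet1kd library was above each parental library, the parental libraries were the most scattered, and Tet2kd libraries overlapped them. Gdf15 had log2 fold changes of 1.25 in Tet1kd cells (adjusted p = 4.04e-06) and -0.22 in Tet2kd cells (adjusted p = 1) in the authors' deposited tables, and in Tet1kd cells the value was 1.66 within the deep and 0.98 within the shallow libraries. Ephx1 (ENSMUSG00000038776), an epoxide hydrolase gene, averaged 428 ± 42.8 in Tet1kd libraries, 353 ± 34.4 in Tet2kd libraries and 293 ± 39.4 in parental libraries (SD, n = 4 each) and was higher in Tet1kd cells, with log2 fold changes of 0.55 in Tet1kd cells (adjusted p = 0.00021) and 0.27 in Tet2kd cells (adjusted p = 0.417) in the authors' deposited tables.

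Dcxr and Rps27l fell in Tet1kd cells. Dcxr (ENSMUSG00000039450), which encodes a xylulose reductase, had counts of 167, 225, 156 and 252 in the Tet1kd libraries, 221, 183, 269.8 and 193 in the Tet2kd libraries and 243, 274, 275 and 292 in the parental libraries, with overlap in both comparisons. Its log2 fold changes in the authors' deposited tables were -0.44 in Tet1kd cells (adjusted p = 0.0213) and -0.32 in Tet2kd cells (adjusted p = 0.175). By limma the adjusted p of Dcxr in Tet1kd cells was 0.0195, and it was 0.0616 without Tet1kd library a, 0.0714 without Tet1kd library c and 0.0511 without parental library d. Rps27l (ENSMUSG00000036781), a ribosomal protein gene that closely resembles Rps27, averaged 2541 ± 193 in Tet1kd libraries, 2746 ± 70.2 in Tet2kd libraries and 3154 ± 87.7 in parental libraries (SD, n = 4 each). How reads shared by these 2 genes were counted was not stated, so its values are uncertain. Rps27l had log2 fold changes of -0.31 in Tet1kd cells (adjusted p = 0.00247) and -0.20 in Tet2kd cells (adjusted p = 0.17) in the authors' deposited tables.

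**Figure D4:**
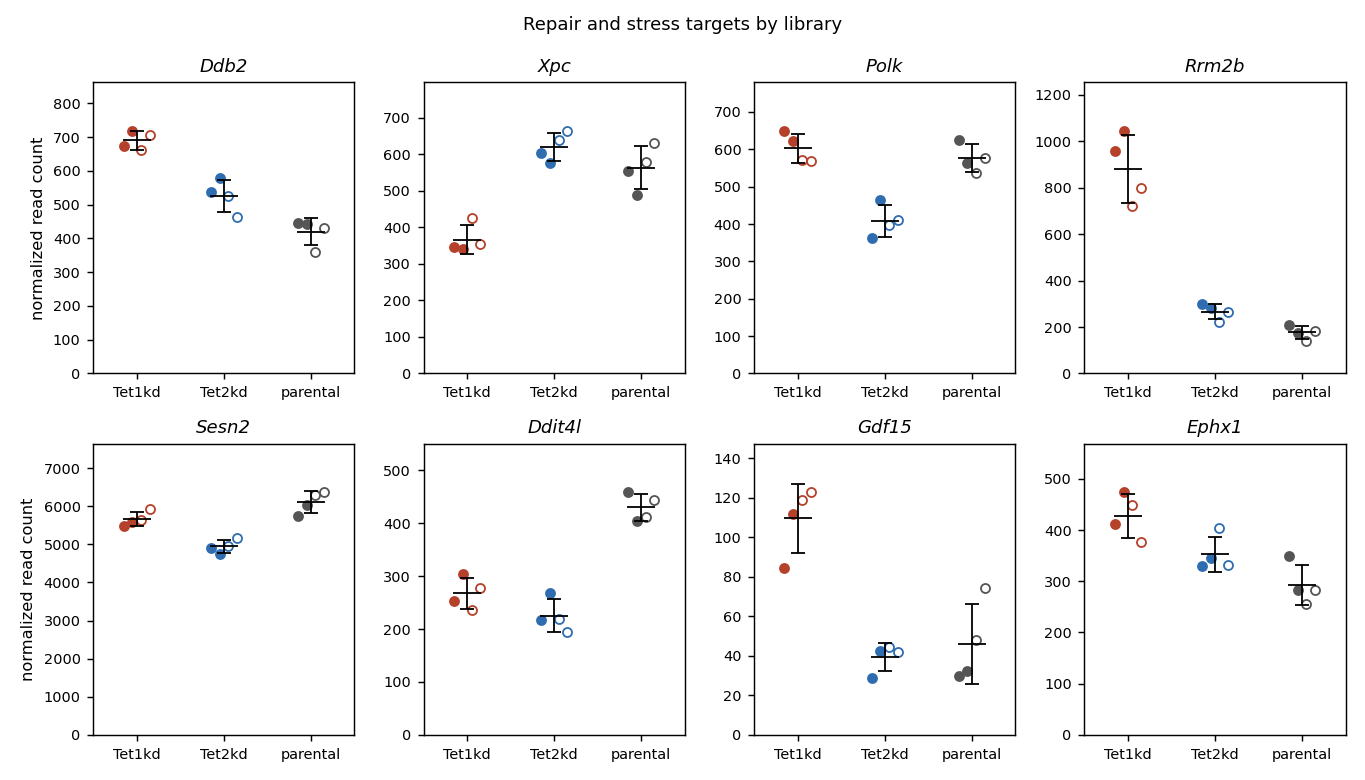
Normalized read counts (y axis, from 0) of 8 repair and stress targets in each recovered library of the Tet1kd, Tet2kd and parental groups, with filled points for deep and open points for shallow libraries and bars for the mean ± SD (n = 4). Rrm2b and Gdf15 are highest in Tet1kd libraries, Xpc is lowest there, Polk and Sesn2 are lowest in Tet2kd libraries, and Ddit4l is low in both knockdowns.

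The knockdowns were also compared directly, with limma on the recovered reads of all 3 groups, for the 32 p53 targets with all 12 libraries. Tet1kd and Tet2kd cells differed in 20 of the 32, with 10 lower and 10 higher in Tet1kd cells, where limma called 50.9% of 14304 genes, 25.3% lower and 25.6% higher. Only 4 of the 8 feedback genes could be compared, as Trp53, Ccng1, Trp53inp1 and Zmat3 were not recovered in all libraries. Of these 4 genes 3 were lower in Tet1kd than in Tet2kd cells, and of the 7 stress genes 3 were higher and none lower. Such counts are too small to read as patterns by role. The largest differences below zero were in Eda2r, at -0.96 ± 0.12 (SE; adjusted p = 5.11e-06) on the log2 scale (Tet1kd minus Tet2kd), Plk3, at -0.85 ± 0.08 (SE; adjusted p = 6.17e-07), and Xpc, at -0.76 ± 0.09 (SE; adjusted p = 5.93e-06), by limma. Ppm1d differed by -0.49 ± 0.08 (SE; adjusted p = 0.000107), Mdm2 by -0.36 ± 0.05 (SE; adjusted p = 8.92e-06) and Cdkn1a by -0.18 ± 0.05 (SE; adjusted p = 0.0059) in the same limma test. With the library batch as a term, limma also called Bax (adjusted p = 3.23e-05), Bbc3 (adjusted p = 0.0114) and Rps27l (adjusted p = 0.0237) as lower in Tet1kd cells. That fit called Ddit4l as higher there (adjusted p = 0.0296). The share of all genes it called between the knockdowns is not given here.

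Rrm2b had the largest difference above zero, 1.72 ± 0.14 (SE; adjusted p = 6.08e-08) by limma. Gdf15 followed at 1.47 ± 0.26 (SE; adjusted p = 0.000209), Perp at 0.71 ± 0.07 (SE; adjusted p = 1.03e-06) and Polk at 0.56 ± 0.09 (SE; adjusted p = 4.96e-05) in the same test. No difference passed for several of the genes that were lower in each knockdown. Plk2 differed by -0.06 ± 0.07 (SE; adjusted p = 0.497), Gtse1 by -0.04 ± 0.06 (SE; adjusted p = 0.649), Ckap2 by -0.01 ± 0.04 (SE; adjusted p = 0.873) and Tnfrsf10b by 0.13 ± 0.07 (SE; adjusted p = 0.104) in limma. A missed threshold does not show that the knockdowns were equal. The differences of Ephx1, at 0.28 ± 0.11 (SE; adjusted p = 0.0424), and of Phlda3, at -0.36 ± 0.11 (SE; adjusted p = 0.0142), were near the threshold in limma. The call of Ephx1 was lost without any one of 6 libraries, with differences of 0.23 to 0.29 and an adjusted p of up to 0.123. That of Phlda3 was lost without Tet1kd library a (-0.27, adjusted p = 0.0518) or Tet2kd library d (-0.29, adjusted p = 0.0504).

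**Figure D5:**
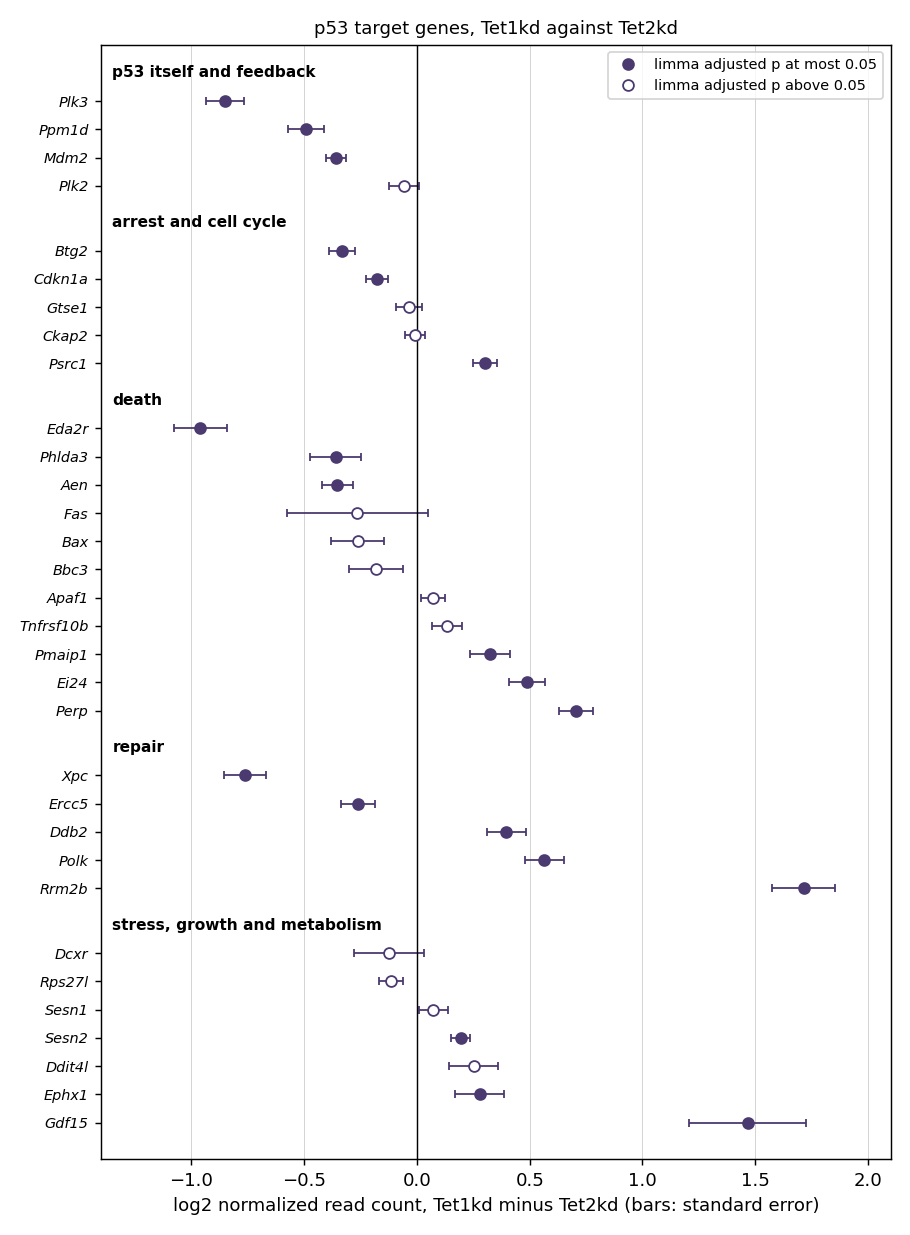
Difference in log2 normalized read count between Tet1kd and Tet2kd cells (x axis, Tet1kd minus Tet2kd, with standard errors) for the 32 p53 target genes recovered in all 12 libraries, grouped by role, with filled symbols where the limma adjusted p was at most 0.05. Eda2r, Plk3 and Xpc lie farthest to the left, and Rrm2b and Gdf15 farthest to the right.

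Upstream regulators of p53 and further p53 targets, neither of them among the 36 genes, were read from the same tables. Of 40 listed regulators 36 were matched and tested. In Tet1kd cells 9 were lower and 6 higher, and in Tet2kd cells 2 were lower and 3 higher, by the adjusted p of the authors' deposited tables, with median log2 fold changes of -0.10 and -0.02. The regulators called were 41.7% of those tested in Tet1kd cells and 13.9% in Tet2kd cells, near the 49.6% and 12.7% called among all genes with a mean of at least 100. Mdm4, the partner of Mdm2 that masks the activation domain of p53, had log2 fold changes of 0.14 in Tet1kd cells (adjusted p = 0.423) and 0.02 in Tet2kd cells (adjusted p = 1) in the authors' deposited tables. The damage kinases Atm, with 0.06 in Tet1kd cells (adjusted p = 0.901) and 0.14 in Tet2kd cells (adjusted p = 0.467), and Chek1, with -0.09 in Tet1kd cells (adjusted p = 0.783) and -0.10 in Tet2kd cells (adjusted p = 0.859), did not pass in the authors' deposited tables either. Atr, the kinase of stalled replication forks, was higher in both, with 0.51 in Tet1kd cells (adjusted p = 1.49e-07) and 0.30 in Tet2kd cells (adjusted p = 0.0161) in the authors' deposited tables. Cdkn2a, the locus of the Mdm2 inhibitor Arf and of p16, averaged 58.1 in Tet1kd cells, against 185 in parental cells, and 269.9 in Tet2kd cells, against 169.6 in parental cells, in the authors' deposited tables. Its log2 fold changes in the authors' deposited tables were -1.67 in Tet1kd cells (adjusted p = 2.01e-06) and 0.67 in Tet2kd cells (adjusted p = 0.0132), so it passed as lower in the one and as higher in the other.

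The other regulators with the smallest adjusted p were chromatin and transcription factors and kinases. Ing1, a chromatin reader that binds p53, had log2 fold changes of -0.79 in Tet1kd cells (adjusted p = 1.01e-15) and -0.25 in Tet2kd cells (adjusted p = 0.0716) in the authors' deposited tables. Zbtb7a, a repressor of Arf, had -0.94 in Tet1kd cells (adjusted p = 6.49e-10) and -0.81 in Tet2kd cells (adjusted p = 7.96e-08) in the authors' deposited tables. For Ppp1r13b, which encodes the p53 cofactor Aspp1, the authors' deposited tables gave 0.98 in Tet1kd cells (adjusted p = 8.08e-15) and 0.30 in Tet2kd cells (adjusted p = 0.152), and for the mitotic kinase Aurka they gave 0.02 in Tet1kd cells (adjusted p = 0.944) and -0.44 in Tet2kd cells (adjusted p = 5.80e-06).

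Of 48 further p53 targets 45 were matched and tested. The row matched to Irf9, called in neither comparison, bears the symbol Acot10 in the annotation, so that match is doubtful. The 45 went in both directions in Tet1kd cells, with 13 lower and 11 higher, and 8 were lower and 5 higher in Tet2kd cells, by the adjusted p of the authors' deposited tables (median log2 fold changes -0.05 and -0.02). These were 53.3% of the further targets in Tet1kd cells, near the 49.6% of all genes with a mean of at least 100, and 28.9% in Tet2kd cells, where 12.7% of such genes were called. Genes among those with the smallest adjusted p in Tet1kd cells were not all on one side. The phosphatase gene Dusp1 had log2 fold changes of 1.53 in Tet1kd cells (adjusted p = 9.43e-71) and 0.17 in Tet2kd cells (adjusted p = 0.239) in the authors' deposited tables. Trp53i11 had 1.15 in Tet1kd cells (adjusted p = 1.62e-31) and 0.05 in Tet2kd cells (adjusted p = 0.95), and the immune ligand gene Cd80 had -2.79 in Tet1kd cells (adjusted p = 2.55e-30) and -0.58 in Tet2kd cells (adjusted p = 0.014), in the authors' deposited tables. In Tet2kd cells they were the phosphatase gene Dusp5, with -1.12 in Tet1kd cells (adjusted p = 2.69e-30) and -0.69 in Tet2kd cells (adjusted p = 2.31e-12), and Zfp365, with -1.05 in Tet1kd cells (adjusted p = 1.70e-24) and -0.59 in Tet2kd cells (adjusted p = 3.49e-08), in the authors' deposited tables. The thiamine transporter gene Slc19a2 had -0.74 in Tet1kd cells (adjusted p = 2.12e-16) and -0.42 in Tet2kd cells (adjusted p = 1.39e-05), and the matrix protein gene Thbs1 0.10 in Tet1kd cells (adjusted p = 0.476) and 0.40 in Tet2kd cells (adjusted p = 3.59e-05), in the authors' deposited tables. Gadd45a, a damage-induced gene of arrest and repair, had -0.75 in Tet1kd cells (adjusted p = 5.08e-06) and 0.31 in Tet2kd cells (adjusted p = 0.0726) in the authors' deposited tables.

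Exon use within the p53 targets changed in few places. Of 458 exon bins of these genes tested in Tet1kd cells 16 were called (3.49%), 7 used more and 9 less, and of 444 tested in Tet2kd cells 13 were called (2.93%), 6 used more and 7 less, by the adjusted p of the authors' deposited exon tables. Over all genes 2.56% of 195843 bins were called in Tet1kd cells and 2.45% of 193091 in Tet2kd cells. Bin 5 of Ckap2 was used less in Tet1kd cells (adjusted p = 1.99e-05) and in Tet2kd cells (adjusted p = 8.98e-10), by the authors' deposited exon tables. Bin 10 of Psrc1 was used less in Tet1kd cells (adjusted p = 1.44e-06) and in Tet2kd cells (adjusted p = 0.0152), and bin 4 of Apaf1 was used more in Tet1kd cells (adjusted p = 0.000365) and in Tet2kd cells (adjusted p = 0.0097), in the authors' deposited exon tables. Bin 35 of Apaf1, used less in Tet2kd cells, had the smallest adjusted p of the members in that comparison (2.31e-11 in the authors' deposited exon table). In Tet1kd cells the smallest was that of bin 16 of Aen, used less (adjusted p = 1.93e-07), beside bin 13 of Aen, used more (adjusted p = 0.00125), in the authors' deposited exon table. The bins are numbered as the authors gave them, and their sizes are not compared.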

How the data were processed

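RNA-seq of 12 libraries was used, 4 each of Tet1kd, Tet2kd and parental cells. TopHat2 (2.0.0), SAMtools (0.1.18) and DESeq, and the builds mm9 and NCBIM37, are named in the submitters' processing notes. Whether counting used strand was not stated. The authors deposited 1 gene table and 1 exon table per knockdown against parental. Per the file headers, the gene tables hold a mean signal per group (reads divided by a size factor, the normalized read count), a fold ratio of knockdown over parental and its log2 value. Per the file headers they further hold the p-value and its adjusted form of 2 tests per gene. Each exon table holds, per the file headers, a mean signal, a log2 value of exon use, a p-value with its adjusted value and a dispersion score of each bin. The log2 value of exon use runs parental over knockdown in the deposited header, and directions are printed the other way round.

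The first deposited adjusted p at 0.05 was the test of each knockdown, and the second was an alternative. Rows of 36 genes were found through their Ensembl IDs. The members, their roles and the other gene lists were chosen with earlier results of these data known. Members called in either comparison are described with their values, and of the other lists the 4 genes with the smallest adjusted p per comparison, with Mdm4, Atm, Chek1, Cdkn2a and Gadd45a added. A gene that this rule names is not reported here.

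The gene tables hold no values per library, so reads were recovered. Since each library's reads are a whole number and share 1 size factor, few sets of 4 such numbers give the 15 digits of a deposited mean. A set was accepted where no other set within 60% of the group mean did so. Where several sets did, the one set within 30% was accepted, if there was only 1. This narrower window was used for Mdm2, Ccng1, Zmat3, Gtse1, Psrc1, Ei24 and Sesn2 and favours small spreads. Tested on parental genes from 1 table alone, 20177 of 20177 answers were right in the wider window and 1018 of 1018 in the narrower one, against the reads from both tables. Recovered Tet2kd counts were put on the scale of the Tet1kd table. Trp53 and Trp53inp1 were not recovered in either knockdown, nor Ccng1 and Zmat3 in Tet1kd cells.

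Recovered counts were tested with limma (3.58.1, in R 4.3.3) on log2(normalized read count + 0.5), for genes with a mean of at least 10, over all 3 groups, with Benjamini-Hochberg adjustment over all genes tested. Limma was tested on simulated counts before the fit. Recovery was tested on simulated means only after it had been run, with the size factors it had found. Those simulated means ended below the means of genes such as Mdm2, Gtse1 and Sesn2. Libraries are labelled as biological replicates, and the p-values measure the spread between them. Genes next to Xpc were found through the order of genes in the GENCODE annotation (GRCm38). Alternatives were the second deposited test, a threshold of 0.01, a filter on low means, centring on genes with a mean of at least 100, other pseudocounts, the library batch and leaving out each library.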

Additional observations from a re-analysis of the deposited data

Results flagged for a closer look

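Of 102 groups of 4 library values examined among the p53 target genes, 4 held 1 library that stood apart from the other three by more than Dixon's critical share of the group's range, and about 1 in 20 groups does so by chance. Fas had 8.90 normalized reads in Tet2kd library c and 13.8 to 14.5 in the other Tet2kd libraries. Apaf1 had 1732 in Tet2kd library d and 1865 to 1877 in the others of that group. Xpc had 426 in Tet1kd library c, the highest of its group, and 342 to 355 in the others. Gdf15 had 28.9 in Tet2kd library a and 42.1 to 44.5 in the others. With all of these libraries kept, the calls of the 4 genes are those given above.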

How the results depend on the processing

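No call among the p53 target genes reversed direction under the alternatives run. In Tet1kd cells the count of 23 called genes was 30 by the second deposited test, 21 at a threshold of 0.01, 25 with genes of a mean below 10 left out, 25 of 32 by limma and 28 of 32 with the library batch as a term. The mean log2 fold change of the 36 genes was -0.18 there, and their median -0.29. In Tet2kd cells the count of 12 was 22 by the second deposited test (18 lower, 4 higher), 11 at 0.01, 13 with low means left out, 16 of 34 by limma and 24 of 34 with the library batch as a term (19 lower, 5 higher). The 1 gene higher in Tet2kd cells became 2 with low means left out and 2 by limma. Leaving out 1 library at a time, limma called 22 to 25 genes in Tet1kd cells and 14 to 15 in Tet2kd cells (12 to 13 lower, 2 to 3 higher), and 18 to 21 between the knockdowns. Between the knockdowns the library batch as a term added the calls of Bax, Bbc3, Rps27l and Ddit4l and lost none. For p53 regulators in Tet2kd cells the count of 5 was 14 by the second deposited test and 2 at 0.01, and the 13 further targets became 26 by the second deposited test. At 0.01, 7 exon bins were called in Tet1kd cells and 6 in Tet2kd cells. The library batch, and both alternatives for the other lists, were chosen after seeing the data. The cause of these shifts was not tested. No paired analysis was possible because the deposited tables hold group means and the recovered libraries are not tied to the replicate numbers of the labels. The comparisons rest on 4 libraries a group and on recovered reads for 32 and 34 of the 36 genes, and Fas and Gdf15 rest on few reads.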
